A study of Mus musculus with 6 samples.

Results

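Actomyosin and SRF target genes were followed as 10 genes chosen by symbol (Acta2, Actg2, Tagln, Cnn1, Cnn2, Myl9, Tpm1, Tpm2, Vcl and Actn1) among 24421 genes measured by sequencing mRNA of the cultured mouse line 4T1, an adenocarcinoma of the breast that is labelled epithelial. 3 libraries came from cells with a control short hairpin RNA (shCTL) and 3 from cells with a hairpin RNA against HSF1, the transcription factor of the heat shock response (shHSF1). Both groups were cultured at 21% O2 and 5% CO2 in DMEM with serum and antibiotics. The number of hairpins, and whether a group was 1 clone or a pool of cells, is not stated in the labels. All 10 genes were found in the table.

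SRF is a transcription factor that binds the CArG box and is held in check by the state of the actin cytoskeleton. Its cofactors MRTF-A and MRTF-B are retained in the cytoplasm by unpolymerised actin and enter the nucleus when actin filaments assemble. The targets then supply the actin filament itself (actins), its side-binding proteins (tropomyosins, calponins, transgelins), the myosin light chains that set contraction, and the proteins that anchor filaments at adhesions (vinculin, alpha-actinin). Some of these genes mark smooth muscle, myofibroblasts and myoepithelial cells, while others are active in most adherent cells, epithelial tumour cells included.

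RefSeq promoter windows of build GRCm38.p6 (250 bases before to 50 bases after the gene start) were at hand for 8 of the 10 members and are not used here for Actg2 and Tagln. An exact CArG box, a consensus that reads the same on both strands, stood in 3 of these 8 windows, those of Cnn2, Vcl and Myl9, and in 1.63% of all 32851 windows. They are shown because Cnn2 and Vcl were the members whose values did not overlap between the groups, whereas Myl9 had no read in any library. The 250 bases before each gene start follow, 5′ to 3′ on the plus strand, which is that of all 3 genes, with the CArG box in capitals (Cnn2 at chr10:79988350-79988599, Vcl at chr14:20929148-20929397, Myl9 at chr2:156775214-156775463).
Cnn2: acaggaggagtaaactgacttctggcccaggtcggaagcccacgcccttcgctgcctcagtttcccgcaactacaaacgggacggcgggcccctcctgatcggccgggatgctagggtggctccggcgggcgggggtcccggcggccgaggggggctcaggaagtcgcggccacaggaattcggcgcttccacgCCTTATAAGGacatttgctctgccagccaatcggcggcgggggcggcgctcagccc
Vcl: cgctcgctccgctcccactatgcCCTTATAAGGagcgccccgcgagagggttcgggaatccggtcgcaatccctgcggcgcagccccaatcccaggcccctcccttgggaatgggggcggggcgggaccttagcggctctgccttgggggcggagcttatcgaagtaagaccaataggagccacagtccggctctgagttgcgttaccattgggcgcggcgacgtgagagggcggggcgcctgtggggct
Myl9: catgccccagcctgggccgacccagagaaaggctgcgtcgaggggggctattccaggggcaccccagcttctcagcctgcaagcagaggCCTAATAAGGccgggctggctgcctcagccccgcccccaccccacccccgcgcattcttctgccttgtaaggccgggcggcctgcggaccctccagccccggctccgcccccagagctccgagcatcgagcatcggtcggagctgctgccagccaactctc
The box is CCTTATAAGG in both Cnn2 and Vcl, 56 to 47 bases before the start in Cnn2 and 227 to 218 bases before it in Vcl, counted from the RefSeq start, which for Vcl lies upstream of the start in the deposited table. In Myl9 it is CCTAATAAGG, 161 to 152 bases before the start. The heat shock element that HSF1 binds was searched as GAANNTTCNNGAA or TTCNNGAANNTTC, each being the other's reverse complement, and none of the 8 windows held it, against 0.603% of all windows. The shorter forms GAANNTTC and TTCNNGAA, which lie within the longer ones, were found in the Vcl window only, against 15.1% of all windows. A match describes letters in these windows and shows no binding. Boxes that depart from the exact letters, or lie outside the windows, were not searched, so a window without a match does not show that a gene lacks the element.

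Between 23750025 and 36903175 reads per library were assigned to genes. The first principal component set both replicate 1 libraries against the other 4 and carried 53.8% of the variance. The second carried 26.0% and set the shCTL libraries (−23.8, −21.9 and −16.3 for replicates 1 to 3) against the shHSF1 libraries (31.0, 15.6 and 15.3). Hsf1 stood at 18.4, 20.3 and 20.1 RPKM (assigned reads, scaled to gene length and library total) in the 3 shCTL libraries versus 23.2, 13.8 and 15.4 RPKM in those labelled shHSF1 (replicates 1, 2 and 3 in that order, as throughout). The library labelled shHSF1 replicate 1 thus did not have a lower level of the target. For this reason the tests are repeated on replicates 2 and 3 alone. There the log2 difference of Hsf1 was −0.46 (limma adjusted p = 0.0433). The Hsf1 values themselves led to this choice of libraries, so for Hsf1 this p-value is not a test of the knockdown. Over all 6 libraries the Hsf1 groups overlapped and the difference was −0.20 (limma adjusted p = 0.810, or 0.577 with the replicate number as a block). All 6 epithelial markers passed the filter on low values, with a summed level of 2018 to 2632 RPKM in shCTL and 1584 to 1847 RPKM in shHSF1. None of 6 smooth muscle or pericyte markers did (summed 0.116 to 0.269 RPKM in shCTL and 0.167 to 0.343 RPKM in shHSF1), and none of 3 blood or endothelial markers (0.141 to 0.184 and 0.0944 to 0.205 RPKM). Of 4 basal or myoepithelial markers Krt14 alone passed the filter, Krt5 being at 0 (summed 0.304 to 1.97 RPKM in shCTL and 0.734 to 1.12 RPKM in shHSF1). Of 8 fibroblast markers Pdgfra alone did, with Col3a1, Lum and Thy1 at 0 (summed 10.0 to 37.6 and 15.7 to 22.8 RPKM). Epcam was higher, and Krt8 and Krt18 lower, in every shHSF1 library than in every shCTL library, without passing over all 6 libraries. Cdh1, E-cadherin, stood at 53.2, 70.6 and 57.0 RPKM in shCTL versus 85.9, 32.3 and 31.7 RPKM in shHSF1, so that it was lower in replicates 2 and 3 and higher in the replicate 1 pair. Without both replicate 1 libraries Epcam rose (log2 difference 1.18, limma adjusted p = 0.00854) while Cdh1 (−0.98, limma adjusted p = 0.0148) and Krt8 (−0.54, limma adjusted p = 0.0466) fell, and Krt18 had −0.34 (limma adjusted p = 0.148). With the replicate number as a block Epcam passed (limma adjusted p = 0.0494) and the other 3 did not (0.112 to 0.535). The part of these shifts in the results below was not tested.

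The 10 genes fell into 2 separate ranges of expression. Tpm1, Actn1, Cnn2 and Vcl were abundant in every library, from 37.6 to 220.3 RPKM, whereas Acta2, Actg2, Tagln, Cnn1, Myl9 and Tpm2 stayed at or below 0.602 RPKM in every library. The test across genes took those that reached 0.5 RPKM in 3 of the 6 libraries or more, which were 11386 genes and 5 of the 10 members. Tpm2 entered it with exactly 3 such libraries. The abundant genes are also used by non-muscle cells, and the scarce ones are best known from muscle. Values per gene do not show which transcripts of a gene were present.

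**Figure D1:**
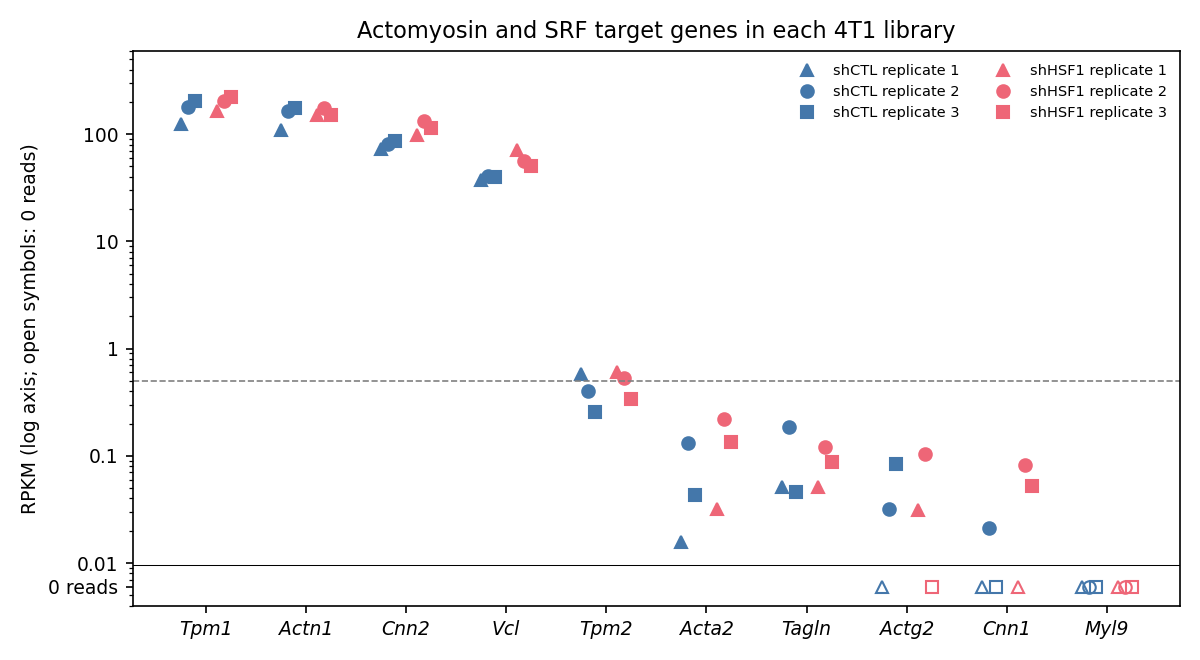
RPKM (log axis) of the 10 genes in each library, with shCTL in blue, shHSF1 in red, and triangles, circles and squares for replicates 1, 2 and 3; open symbols below the solid line are libraries with 0 reads, and the dashed line is 0.5 RPKM. Tpm1, Actn1, Cnn2 and Vcl lie between 37.6 and 220.3 RPKM, the other 6 genes at or below 0.602 RPKM.

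Among the muscle actins, Acta2 (chromosome 19, 34240336 to 34255373, minus strand, mm10), alpha smooth muscle actin, had 1, 8 and 3 reads in shCTL replicates 1 to 3 and 2, 21 and 10 reads in the libraries labelled shHSF1. These are 0.0158, 0.131 and 0.0430 RPKM against 0.0318, 0.221 and 0.136 RPKM. The groups overlapped, and both replicate 1 libraries held the fewest reads. Actg2 (chromosome 6, 83512909 to 83536251, minus strand), enteric smooth muscle actin, had 0, 1 and 3 reads in shCTL and 1, 5 and 0 in shHSF1. The cytoplasmic actins of the same cells were at another scale: Actb ranged from 816 to 2481 RPKM and Actg1 from 411 to 765 RPKM over the 6 libraries. Acta2 thus made up at most 0.00795% of the summed RPKM of 6 actin genes in any library, and Actc1, cardiac actin, was at 0 throughout.

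Tagln (chromosome 9, 45929628 to 45936058, minus strand), the smooth muscle protein transgelin or SM22-alpha, had 2, 7 and 2 reads in shCTL and 2, 7 and 4 in shHSF1. Its exons overlap those of Pcsk7 on the opposite strand by 95 bases, and since no source used here gives the strand setting, reads of the 2 genes cannot be told apart there. Its non-muscle relative Tagln2 ranged from 149 to 483 RPKM and held at least 99.957% of the summed RPKM of the 3 transgelin genes in every library. Cnn1 (chromosome 9, 22099253 to 22109221, plus strand), calponin of differentiated smooth muscle, had 0, 1 and 0 reads in shCTL and 0, 6 and 3 reads in shHSF1. Its groups overlapped at 0.

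Myl9 (chromosome 2, 156775464 to 156781657, plus strand), the regulatory light chain of smooth muscle myosin, had 0 reads in each of the 6 libraries. A floor of 3 reads puts its level below 0.0751 to 0.117 RPKM, depending on the library. Such zeros were common, since 30.3% of all genes had no read in any library. None of its 1251 distinct 50-base stretches in GENCODE M21 transcripts occurred in a transcript of another gene. The related light chains Myl12a and Myl12b ranged from 162 to 246 RPKM and from 208 to 262 RPKM. Tpm2 (chromosome 4, 43513726 to 43523554, minus strand), beta-tropomyosin, rested on 47, 32 and 23 reads in shCTL and 49, 65 and 32 in shHSF1. That is 0.411 ± 0.160 RPKM against 0.489 ± 0.138 RPKM (SD, n = 3 each), with overlapping groups. The log2 difference of Tpm2 came to 0.12 with an SE of 0.25 (limma adjusted p = 0.910). On replicates 2 and 3 alone it was 0.17 (limma adjusted p = 0.644). Among the tropomyosins Tpm4 was the most abundant, at 241 to 435 RPKM, followed by Tpm1 and by Tpm3, at 50.3 to 94.3 RPKM.

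At this depth and with 0.5 RPKM added to each value, no difference between shHSF1 and shCTL was detectable for the scarce genes. When every gene with a read was kept (17022 genes), the log2 differences were 0.15 for Acta2, 0.015 for Actg2, −0.013 for Tagln and 0.10 for Cnn1, with limma adjusted p between 0.650 and 0.981. Log2 differences here are of log2(RPKM + 0.5), shHSF1 minus shCTL, and understate the change of low genes.

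The comparison of shHSF1 with shCTL asked whether the abundant members moved with the hairpin. Cnn2 and Vcl were the 2 members whose shHSF1 libraries all lay above all shCTL libraries, while Tpm1, Actn1 and Tpm2 overlapped. The shHSF1 mean was above the shCTL mean by 43.9% for Cnn2 and by 50.2% for Vcl. None of the 5 tested members passed an adjusted p of 0.05 (limma), where 3 of 11386 genes (0.0263%) did. At an unadjusted p under 0.05 there were 2 of 5 members (Cnn2 and Vcl), against 11.4% of all genes tested. The groups did not overlap in 20.0% of all genes tested, and 12.9% were like Cnn2 and Vcl in being higher in shHSF1. The median log2 difference of the 5 members was 0.23, all 5 being above 0, against a median of 0.052 over all genes tested, of which 57.1% were above 0. In a bulk culture, a change in the number of cells expressing a gene and a change in RNA per cell cannot be told apart.

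Cnn2 (chromosome 10, 79988600 to 79995400, plus strand), the calponin of non-muscle cells that binds actin filaments, stood at 72.2, 81.0 and 86.0 RPKM in shCTL versus 98.7, 131 and 114 RPKM in shHSF1. Every shHSF1 value was above every shCTL value, the closest being 86.0 and 98.7 RPKM. The means were 79.7 ± 7.02 and 115 ± 16.3 RPKM (SD, n = 3 each), on 10758 and 18777 reads. The log2 difference was 0.52 (SE 0.15, 95% interval 0.16 to 0.88, limma adjusted p = 0.275), and in same-numbered pairs it was 0.45, 0.69 and 0.41. Without both replicate 1 libraries it was 0.55 (SE 0.10) and passed (limma adjusted p = 0.0322), where 11.1% of genes did and 7.04% did so in the same direction. With replicate 1 as a batch covariate it also passed (limma adjusted p = 0.0369, as did 5.64% of genes, 3.89% in the same direction), but not with the replicate number as a block (limma adjusted p = 0.0973, 0.176% of genes). Its relative Cnn3 did not overlap between the groups either, at 138, 166 and 173 RPKM in shCTL and 189, 211 and 200 RPKM in shHSF1 (log2 difference 0.34, SE 0.14, limma adjusted p = 0.426). Cnn2 held 34.4%, 32.8% and 33.3% of the summed calponin RPKM in shCTL and 34.3%, 38.4% and 36.3% in shHSF1.

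Vcl (chromosome 14, 20929433 to 21033673, plus strand) encodes vinculin, which links actin filaments to integrin and cadherin adhesions. It stood at 37.6, 41.1 and 40.1 RPKM in shCTL versus 71.4, 56.4 and 50.6 RPKM in shHSF1. The shCTL values lay close together, and the highest value was that of the library labelled shHSF1 replicate 1, in which Hsf1 itself was not lower. The means were 39.6 ± 1.84 and 59.5 ± 10.7 RPKM (SD, n = 3 each). The log2 difference was 0.57 (SE 0.16, 95% interval 0.19 to 0.94, limma adjusted p = 0.252), with 0.92, 0.45 and 0.33 in same-numbered pairs. Without both replicate 1 libraries it was 0.39 (SE 0.09, limma adjusted p = 0.0529). Fitted with a term for replicate 1, its adjusted p from limma was 0.0598. Vcl passed under none of the alternatives run.

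**Figure D2:**
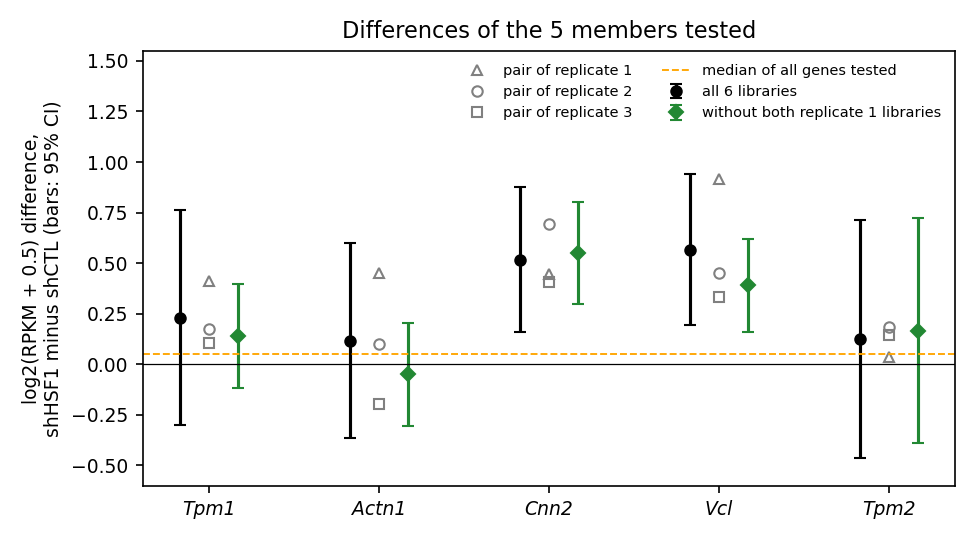
Difference in log2(RPKM + 0.5), shHSF1 minus shCTL, of the 5 tested genes over all 6 libraries (black) and without both replicate 1 libraries (green), with 95% intervals, and in each same-numbered pair (grey open symbols); the dashed line is the median of all genes tested, 0.052. The Cnn2 and Vcl intervals lie above 0 in both fits, and those of Tpm1, Actn1 and Tpm2 span 0.

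Tpm1 (chromosome 9, 67022593 to 67049213, minus strand), alpha-tropomyosin, which lies along actin filaments and stabilises them, was the most abundant member. It stood at 124, 179 and 204 RPKM in shCTL versus 164, 202 and 220.3 RPKM in shHSF1. Within each same-numbered pair the shHSF1 library was higher, but the groups overlapped. The log2 difference was 0.23 (SE 0.22, 95% interval −0.30 to 0.76, limma adjusted p = 0.780), and without both replicate 1 libraries 0.14 (SE 0.11, limma adjusted p = 0.395). Actn1 (chromosome 12, 80167542 to 80260371, minus strand), the alpha-actinin that bundles filaments at adhesions and stress fibres, stood at 110, 164 and 174 RPKM in shCTL versus 151, 176 and 152 RPKM in shHSF1. The 2 highest values belonged to different groups. Its log2 difference was 0.12 (SE 0.20, 95% interval −0.37 to 0.60, limma adjusted p = 0.894) and turned to −0.05 (SE 0.10, limma adjusted p = 0.768) without both replicate 1 libraries.

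The other non-muscle alpha-actinin, Actn4, stood at 100, 140 and 141 RPKM in shCTL versus 82.9, 123 and 119 RPKM in shHSF1 (log2 difference −0.23, SE 0.22, limma adjusted p = 0.770). Actn1 made up 52.4%, 54.0% and 55.4% of the summed RPKM of both genes in shCTL and 64.5%, 59.0% and 56.0% in shHSF1. These shares did not overlap between the groups, but they were chosen after the values were seen and were not tested. Of the stretches of 50 bases in Actn1 transcripts, 0.290% also occur in Actn4. In both groups the order of mean levels was Tpm1, Actn1, Cnn2 and Vcl. The ranges of Tpm1 and Actn1 overlapped within each group, while in both groups every Actn1 value exceeded every Cnn2 value and every Cnn2 value exceeded every Vcl value.

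The abundant members also differed between replicates within a group. Cnn2, Tpm1 and Actn1 were lowest in replicate 1 of both groups, which held for 2848 genes, or 25.0%, of all those tested. Replicate 1 minus the mean of replicates 2 and 3, on the log2 scale, was −0.63 in shCTL and −0.36 in shHSF1 for Tpm1. For Actn1 these values were −0.62 and −0.12, and for Cnn2 they were −0.21 and −0.31. For Vcl they differed in sign, at −0.11 in shCTL and 0.42 in shHSF1. Of 17 other actin, myosin and thin filament genes tested, 13 were lowest in replicate 1 of both groups, among them Actb (a difference of −1.3 in shCTL and −0.95 in shHSF1) and Tagln2 (−1.2 and −1.5). For Tpm1 and Actn1 the shift of replicate 1 in shCTL was larger in size than the difference between the groups.

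**Figure D3:**
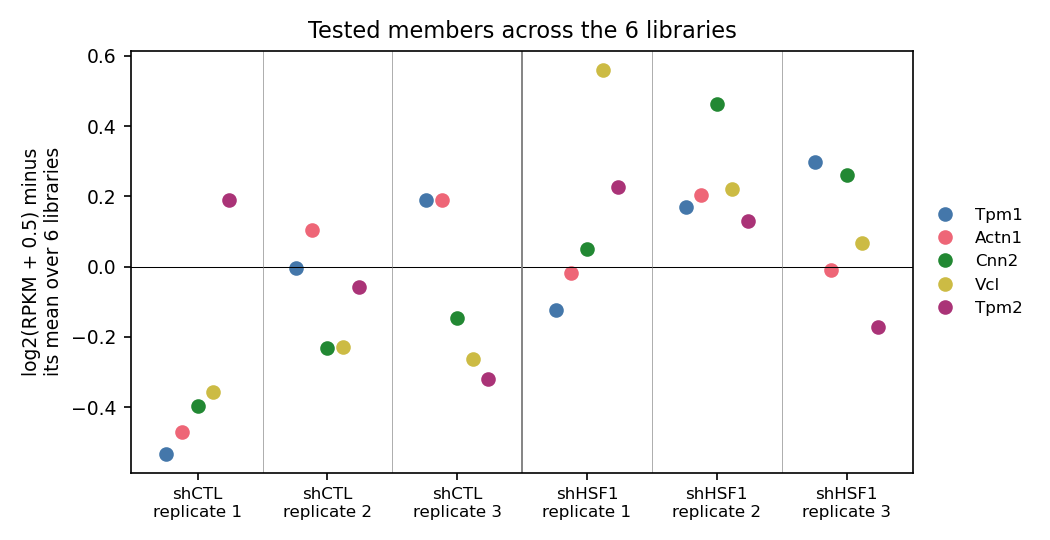
log2(RPKM + 0.5) of each tested gene minus its mean over the 6 libraries, by library; each colour is 1 gene. Cnn2, Tpm1 and Actn1 have their lowest value of each group in replicate 1, and Cnn2 and Vcl lie below 0 in all shCTL libraries and above 0 in all shHSF1 libraries.

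The rest of the pathway was read from lists of its parts. No gene of these lists passed over all 6 libraries with limma. Their counts stand beside 11.4% of all genes tested at an unadjusted p under 0.05 and, without both replicate 1 libraries, 11.1% passing (7.04% higher in shHSF1). Srf itself stood at 13.4, 13.8 and 17.6 RPKM in shCTL versus 15.9, 17.6 and 19.4 RPKM in shHSF1 (log2 difference 0.24, SE 0.16, limma adjusted p = 0.644), with overlapping groups. Mkl1, which encodes MRTF-A, had a log2 difference of 0.21 (SE 0.28) and Mkl2, which encodes MRTF-B, 0.056 (SE 0.15). Myocd, the cofactor of smooth and cardiac muscle, reached at most 0.016 RPKM and was at 0 in 5 libraries. Of 12 tested genes for SRF, its cofactors and regulators of actin assembly (median 0.12, 1 at an unadjusted p under 0.05), 1 rose without both replicate 1 libraries and none fell, a share near that of all genes. Limk2, a kinase that inactivates cofilin, stood at 8.27, 8.59 and 8.04 RPKM in shCTL versus 12.9, 12.5 and 11.5 RPKM in shHSF1 (without replicate 1, log2 difference 0.50, SE 0.10, limma adjusted p = 0.0391).

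Of the 17 other actin, myosin and thin filament genes (median 0.14, 1 at an unadjusted p under 0.05), Myh10, the heavy chain of non-muscle myosin IIB, was the 1 that rose without both replicate 1 libraries. It stood at 28.4, 42.9 and 46.5 RPKM in shCTL versus 43.1, 64.0 and 66.4 RPKM in shHSF1 (without replicate 1, log2 difference 0.54, SE 0.09, limma adjusted p = 0.0252). Myh9, the heavy chain of myosin IIA, had −0.14 in that fit (limma adjusted p = 0.269). Of 18 tested focal adhesion and actin-binding genes (median 0.039, 1 at an unadjusted p under 0.05), 1 rose and 2 fell without both replicate 1 libraries, beside the 11.1% of all genes. Csrp2, a LIM protein of actin bundles, stood at 4.66, 5.02 and 5.51 RPKM in shCTL versus 6.43, 12.7 and 15.7 RPKM in shHSF1 (without replicate 1, log2 difference 1.34, SE 0.13, limma adjusted p = 0.00924). Cfl1, cofilin, which severs actin filaments, stood at 511, 1065 and 1015 RPKM in shCTL versus 413, 726 and 805 RPKM in shHSF1 (−0.44, SE 0.10, limma adjusted p = 0.0452). Tln1, talin, which binds vinculin and integrins, stood at 66.9 and 70.8 RPKM in shCTL replicates 2 and 3 and at 49.6 and 52.2 RPKM in shHSF1 (−0.43, SE 0.09, limma adjusted p = 0.0380), but at 44.9 against 59.4 RPKM in the replicate 1 pair. Tln1 and Vcl thus differed in direction in replicates 2 and 3. With the replicate number as a block over all 6 libraries none of these 5 genes passed (limma adjusted p = 0.0973 for Limk2, 0.0890 for Myh10, 0.112 for Csrp2, 0.119 for Cfl1 and 0.671 for Tln1). With replicate 1 as a batch covariate, where 5.64% of all genes passed, Tln1 did not pass (limma adjusted p = 0.613). In that fit the others passed (limma adjusted p = 0.0419 for Limk2, 0.0277 for Myh10, 0.0478 for Csrp2 and 0.0478 for Cfl1).

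The immediate-early genes, which SRF drives with other partners, numbered 8, all tested (median 0.41, 1 at an unadjusted p under 0.05), and none passed in either fit. Without both replicate 1 libraries the median log2 difference of these genes was 0.14. Egr2 stood at 1.37, 1.29 and 0.956 RPKM in shCTL versus 2.40, 2.53 and 1.71 RPKM in shHSF1 (log2 difference 0.66, SE 0.22, limma adjusted p = 0.331). Nr4a1 had 0.43 (SE 0.21, limma adjusted p = 0.512), also without overlap. Of the 55 tested genes of these 4 lists, 11 were higher and 2 lower in shHSF1 without overlap between the groups. Among all genes tested, 20.0% were without overlap in either direction and 12.9% were so and higher in shHSF1.

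**Figure D4:**
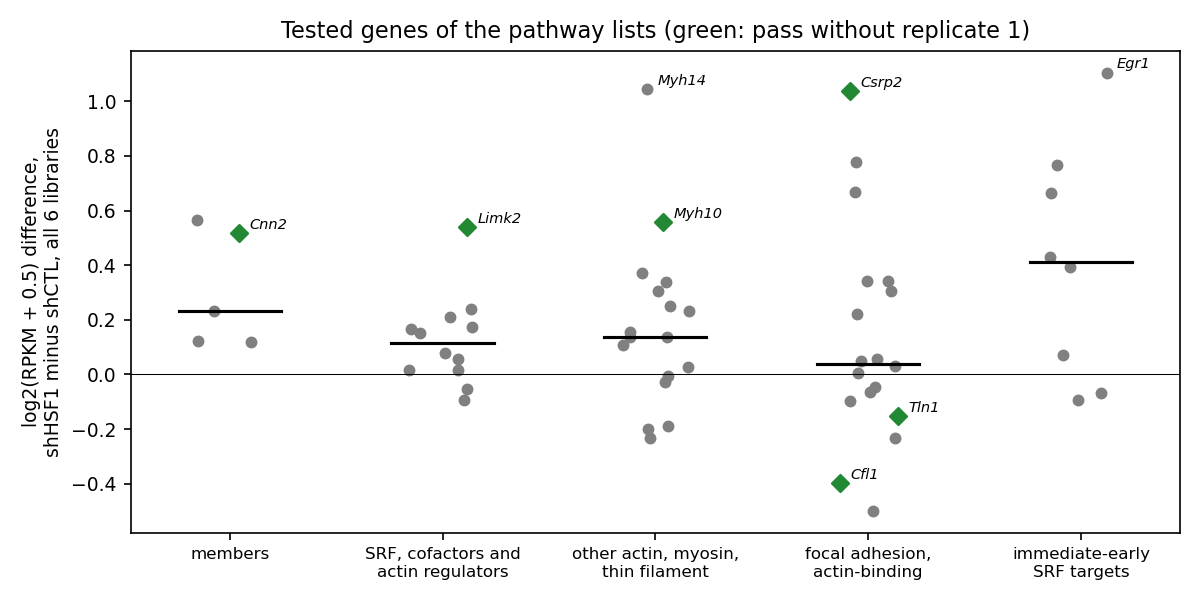
Difference in log2(RPKM + 0.5), shHSF1 minus shCTL over all 6 libraries, of the tested genes of the members and 4 pathway lists; bars are medians, and green diamonds passed without both replicate 1 libraries. Medians run from 0.039 for the focal adhesion list to 0.41 for the immediate-early list.

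Likeness of profile was measured as the root mean square difference between log2(RPKM + 0.5) values, each centred on its mean over the 6 libraries, among 10808 genes with a mean of at least 1 RPKM. The mean profile of the 5 tested members spanned 0.55 on the log2 scale, and Appbp2 (0.041), Ccdc138 (0.043) and Csnk1g2 (0.045) lay closest to it. For Acta2 the closest were Prkaca (0.043), Clip2 (0.044) and Bcorl1 (0.047), and for Tagln they were Plekhg2 (0.011), Gipc1 (0.034) and Phldb1 (0.043). The Acta2 and Tagln profiles rest on 45 and 24 reads in all.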

How the data were processed

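The authors deposited RPKM per gene beside each gene's length, per the file headers; STAR, featureCounts and the build mm10 are named in the submitters' processing notes, with no version. RNA was taken with a column kit and made into mRNA libraries, per the labels' protocols. No source used here gives the annotation, strand setting or handling of shared reads. RPKM times length gave whole reads for 100% of values (tolerance 0.001). No column belonged to another sample (0).

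Groups and replicate numbers came from titles. Whether replicates were separate cultures is not stated, so p-values measure the spread between libraries, which may be technical. log2(RPKM + 0.5) was tested with limma 3.58.1 (R 4.3.3, variance trend, no block) over the 11386 genes that reached 0.5 RPKM in 3 of the 6 libraries or more, with Benjamini-Hochberg adjustment at 0.05. Tables and figures used Python 3.11.15, pandas 2.3.3, numpy 2.4.6 and matplotlib 3.10.9. The code was tested on simulated data. Floors (3 reads) cover counting error only. Intervals are 95% limma intervals.

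Members, lists and tests were chosen with earlier results of these data known. Named were all members and, per list, up to 3 genes passing over 6 libraries or without both replicate 1 libraries, or else the 2 with the smallest p; relatives of members and Srf cofactors were named for their role, and further markers to check the cell type. 4 list genes stood under older symbols (Mkl1, Mkl2, Diap1, Diap3). Deviations of same-numbered libraries from their group means correlated at 0.58, 0.18 and 0.68 across genes. Libraries of unlike number were not compared in this way, so these values cannot show that the numbers pair. No label says what a number shares, so the main fit did not use the numbers as pairs. Differences in same-numbered pairs and the block are given beside it. Alternatives were pseudocounts of 0.1 and 1, other filters, 2 other scalings, no trend, the block, replicate 1 as a covariate, voom on whole reads, and libraries left out. Single-cell and human data of the study were not analysed here, and some genes of 1 pathway list are not reported here.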

Additional observations from a re-analysis of the deposited data

How the results depend on the processing

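Cnn2 and Vcl were higher in shHSF1 under each of the 17 alternatives run (log2 difference 0.41 to 0.62 and 0.39 to 0.67). Cnn2 was called by limma under 2, without both replicate 1 libraries (0.55) and with replicate 1 as a batch covariate (0.52), so that the count of members passing was 1 in those and 0 in the others; Vcl was called under none. With each library left out in turn Cnn2 ran from 0.41 to 0.62, Vcl from 0.43 to 0.67, Tpm1 from 0.022 to 0.38, Actn1 from −0.089 to 0.24 and Tpm2 from −0.0051 to 0.25. Actn1 was below 0 without both replicate 1 libraries (−0.050) and without shCTL replicate 1 (−0.089), and Tpm2 without shCTL replicate 3 (−0.0051); the cause was not tested. The count of all genes passing, 3, was 18 with no filter on low values, 22 with no variance trend, 20 with the replicate block, 642 with replicate 1 as a batch covariate, 11 with voom and 1262 without both replicate 1 libraries, and ran from 0 to 8 with each library left out. Dropping replicate 2 of either group gave 0 genes in limma (unadjusted p under 0.05 in 771 for shCTL and 778 for shHSF1). Dropping replicate 3 gave 5 for shCTL and 1 for shHSF1, and dropping replicate 1 gave 2 for shCTL and 8 for shHSF1. The replicate block changed no call among the members (0 passing). Tpm2 was not tested at a filter of 1 RPKM. Median-of-ratios scaling moved the median of all genes from 0.052 to −0.0027 and quantile scaling to −0.017. Depth limits the scarce genes, at 45 reads or fewer in all for Acta2, Tagln, Actg2 and Cnn1.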

Other observations

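2 further genes of the pathway lists, chosen after their values were seen, had a library far from the rest. Myh14, the heavy chain of non-muscle myosin IIC, stood at 12.8 RPKM in the library labelled shHSF1 replicate 1 and at 1.56 RPKM in shCTL replicate 1, against 0.498 to 0.844 RPKM in the other 4 libraries. Egr1, an immediate-early transcription factor, stood at 1.04 RPKM in shCTL replicate 1 and at 7.07 to 11.5 RPKM in the other 5. Neither passed over all 6 libraries (limma adjusted p = 0.766 and 0.609) or without both replicate 1 libraries (limma adjusted p = 0.479 and 0.209). Pdlim1, a LIM protein of stress fibres, was scarce in replicate 1 of both groups (0.135 and 0.271 RPKM) and stood at 0.448 and 0.954 RPKM in shCTL replicates 2 and 3, against 1.66 and 2.16 RPKM in shHSF1 (without replicate 1, limma adjusted p = 0.0547).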
